A study of Homo sapiens with 8 samples.

Results

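Guide abundance after 14 days of vehicle culture was compared with that at the start of culture (T0) in MB157R cells, using 5 of the 8 libraries of a pooled CRISPR-Cas9 knockout screen. MB157R is a single line of triple-negative breast cancer that acquired resistance to γ-secretase inhibition through chronic exposure, and all its cells here also carried Cas9, an sgRNA cassette, and the blasticidin and puromycin resistance that mark them. Cells received the human GeCKOv2 library, parts A and B, at 200-fold coverage or more, were held in puromycin for 4 days and were pooled. The 2 T0 libraries came from aliquots of that pool at day 0, and the 3 DMSO libraries came from vehicle cultures kept for 14 more days. The 3 libraries of cultures with 10 µM of the γ-secretase inhibitor (GSI) LY3039478 were left out of the comparison and are given only beside it. Libraries were chosen by their labels, and all 119461 guides entered, of which 111627 were directed against 18913 genes, 6834 against 1795 microRNAs and 1000 against no human site.

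In such a screen each cell loses the gene that its guide cuts, and the guide itself is a heritable tag of that cell. A guide is counted less often at the end when its cells divided more slowly or died, which guide counts cannot tell apart, and more often when its cells outgrew the pool. Genes for copying, reading and translating the genome are known to be needed in nearly every dividing cell, whereas the needs for receptors, kinases and lineage factors differ between lines. A guide count is a count of DNA tags, so no RNA marker of the cell type could be read from these libraries.

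Total counts were 17.7 M and 15.2 M (M, 1e+06) at T0 and 13.0 M, 15.5 M and 12.1 M with DMSO. The T0 libraries stood further from each other (Spearman rho over guides 0.411) than the DMSO libraries did (0.639 to 0.657). The T0 libraries had no read for 5.12% and 11.5% of guides, the DMSO libraries for 2.64% to 3.94%. Of the 13787 guides at 0 in T0 replicate 2, 74.5% were found in every DMSO library, so many zeros there were guides that the cells still held. Counts were scaled by median-ratio size factors ("normalized counts"), and each gene was given the median log2 fold change (DMSO over T0) of its guides, with the SD over those guides. Below, pairs and triplets of normalized counts are means over a gene's guides in T0 replicates 1 and 2 and in DMSO replicates 1 to 3.

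Of 18573 genes with at least 4 tested guides, 10 were called lower after vehicle culture and none was called higher. A gene was called at an adjusted p under 0.05, from the exact p of a robust rank aggregation (RRA) of one-sided edgeR guide p-values with Benjamini-Hochberg adjustment over all genes. The 10 genes were 0.0538% of those tested. Among them were GAPDH, NAA10, CENPW, PDCD2, SEC61A1, RPL37A, LOC440243, SHQ1 and SYS1. Of the 10, 8 belonged to lists of core cellular machinery described below, which were chosen with earlier results of these data known. Those lists and the signalling lists together held 1729 of the 18573 genes tested.

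GAPDH, a glycolytic enzyme (GRCh38 chromosome 12, 6534512 to 6538374), had the lowest p, with normalized counts of 179 and 139 at T0 and 24.1, 71.3 and 41.8 with DMSO. Its fold change was −4.26 ± 2.24 (adjusted p = 0.0125, RRA), and 5 of its 6 guides were below 0. The remaining guide, from part A, had a log2 fold change of 0.70. NAA10 is the catalytic subunit of the main N-terminal acetyltransferase (chromosome X, 153929225 to 153935080), and its normalized counts were 158 and 155 at T0 and 53.7, 44.99 and 52.0 with DMSO. Its fold change was −3.62 ± 2.98 (adjusted p = 0.0125, RRA). In both genes all DMSO libraries lay below both T0 libraries, as they did in 17.1% of all genes tested. The higher GAPDH mean in DMSO replicate 2 came from the part A guide at 0.70. That guide had normalized counts of 73.4, 404 and 163 in DMSO replicates 1 to 3. The 5 GAPDH guides below 0 were each lowest in replicate 2 of the vehicle cultures.

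CENPW is a histone-fold protein of the inner kinetochore (chromosome 6, 126340115 to 126348875). Its normalized counts were 127 and 171 at T0 and 19.7, 33.0 and 22.8 with DMSO, and all 5 tested guides were below 0 with a fold change of −2.82 ± 1.29 (adjusted p = 0.0125, RRA). Every DMSO library held far fewer CENPW guides than either T0 library.

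Genes that act on the ribosome or on small RNA particles made up 3 of the 10. RPL37A encodes a protein of the large ribosomal subunit (chromosome 2, 216498825 to 216579180), and its guides gave normalized counts of 114 and 99.6 at T0 and 25.9, 23.2 and 18.6 with DMSO. The fold change was −2.77 ± 3.61 (adjusted p = 0.0158, RRA), with a median of 0.00 over the guides of part A and −4.52 over those of part B. One part B guide went from raw counts of 98 and 45 at T0 to 0 in every DMSO library. PDCD2, a chaperone for a protein of the small ribosomal subunit (chromosome 6, 170575295 to 170584692), gave normalized counts of 154 and 201 at T0 and 35.3, 25.5 and 17.5 with DMSO and a fold change of −3.38 ± 2.47 (adjusted p = 0.0158, RRA). SHQ1, which assembles the H/ACA particles that modify RNA (chromosome 3, 72749277 to 72861914), gave normalized counts of 198 and 145 at T0 and 49.9, 44.4 and 59.4 with DMSO and a fold change of −2.40 ± 1.66 (adjusted p = 0.032, RRA). For SHQ1, 4 of 6 guides were below 0, and the median was −2.67 in part A and 0.12 in part B.

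The secretory pathway gave a further pair. SEC61A1 forms the channel through which new proteins enter the endoplasmic reticulum (chromosome 3, 128051641 to 128071705), and its normalized counts were 106 and 135 at T0 and 9.50, 6.77 and 29.4 with DMSO. All 6 guides were below 0, with a fold change of −2.94 ± 0.94 (adjusted p = 0.0158, RRA). Of these guides, 1 had raw counts of 199 and 0 at T0 and another 0 and 53. SEC61A1 was not called when only guides above 0 in both T0 libraries were tested. SYS1 is a Golgi membrane protein that anchors a small GTPase (chromosome 20, 45361937 to 45376798), with normalized counts of 268 and 274 at T0 and 66.4, 62.8 and 61.5 with DMSO and a fold change of −1.38 ± 2.27 (adjusted p = 0.0469, RRA). The last called gene, LOC440243, was matched to no annotated position here. Its 4 tested guides, all below 0, gave normalized counts of 214 and 273 at T0 and 47.4, 39.5 and 50.7 with DMSO and a fold change of −2.21 ± 1.34 (adjusted p = 0.032, RRA). The T0 and DMSO libraries did not overlap in any of the 10 genes, which were called for being low in these libraries. All DMSO libraries lay below both T0 libraries in 17.1% of all genes tested. In 8 of the 10 the medians of parts A and B were both below 0, against 26.4% of all genes. The calls were made from these same guides, so this is not separate support.

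**Figure D1:**
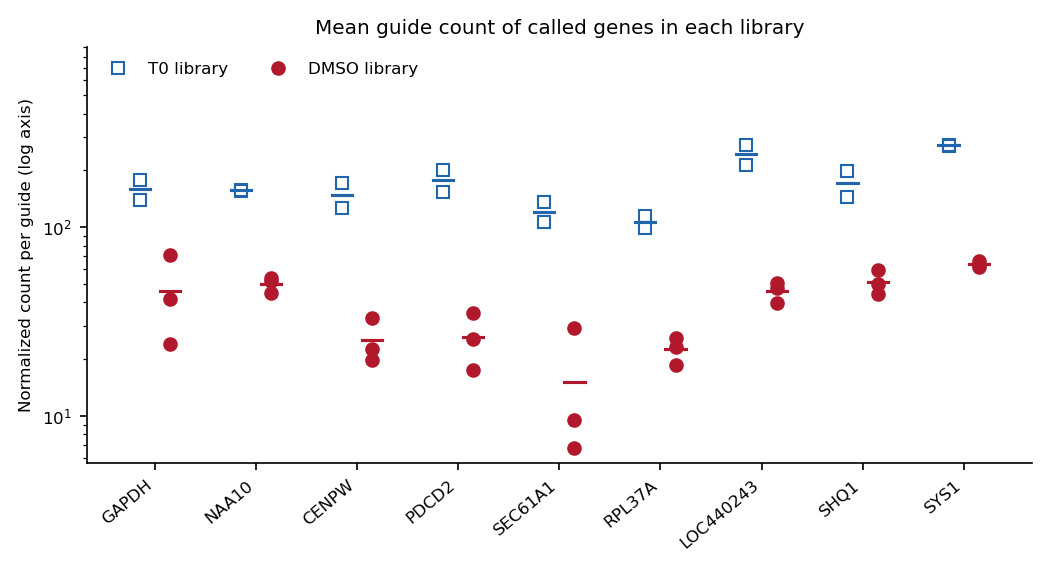
Normalized count per guide (log axis) of 9 of the 10 called genes, averaged over each gene's tested guides; open squares are the 2 T0 libraries, filled circles the 3 DMSO libraries and short lines their means. Every DMSO library lies below both T0 libraries, with the widest spread for SEC61A1, at 9.50, 6.77 and 29.4 with DMSO.

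These calls needed both T0 libraries. The same test gave 0 genes without T0 replicate 1 and 0 without T0 replicate 2, and 8, 3 and 6 genes without DMSO replicates 1, 2 and 3, of which 5, 3 and 3 were among the 10. Requiring a mean of 50 raw counts per guide also left 0. Fold changes of the called genes stayed below 0 wherever they were tested, but CENPW and PDCD2 had too few guides at the minimum of 50, and LOC440243 had too few without T0 replicate 2. Guide p-values measure the spread between cultures and aliquots of 1 transduced pool. The RRA p of a gene is computed from the ranks of its guides among all guides, taken as independent. It is not a measure of spread between libraries. Below a log2 fold change of about −4, the fold rests on guides with few or no reads at day 14 and depends on the prior count.

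No single guide passed an adjusted p under 0.05 in edgeR among 116323 tested, with 4172 lower and 4814 higher before adjustment, whereas the Wald test of DESeq2 passed 6653. The 0 genes called higher compare with 984 (5.3%) at an RRA p under 0.05. On the low side 1169 genes (6.29%) had such a p, called nominal here. Over all genes tested the median fold change was −0.00, 50.1% were negative, 929 were under −1 and 753 were over 1. Scaling to the non-targeting guides instead moved the median of all genes to −0.26, so all fold changes here are relative to the bulk of guides. Non-targeting guides had a median log2 fold change of 0.25, at a median T0 count of 188 against 100.1 for gene guides. The share of guides under −1 was 2.50% for them and 17.9% for gene guides, and the share over 1 was 14.0% and 19.2%.

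**Figure D2:**
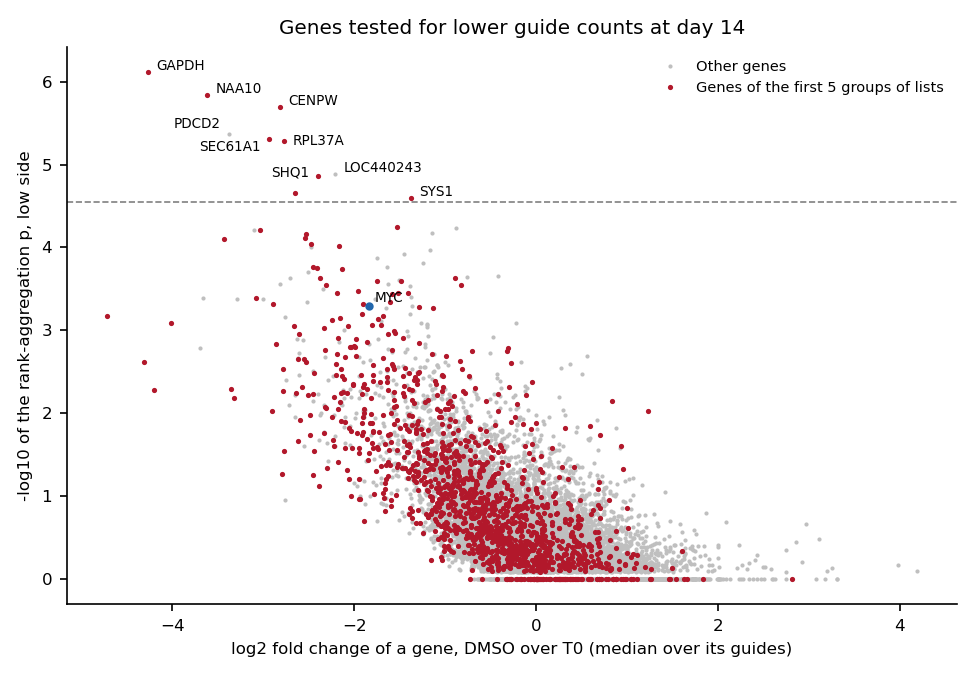
Fold change of each gene (log2, DMSO over T0) against the −log10 of its RRA p on the low side; red points are members of the lists for protein synthesis, RNA, protein folding and secretion, cell division and metabolism, grey points all other genes, blue MYC. The 10 called genes lie above the dashed line, 9 of them named, and 8 of the 10 are red. The lists in red and the signalling lists together held 1729 of the 18573 genes tested.

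The 57 lists of genes, grouped by cellular role, were set against these shares without a set test. Lists and members were chosen with earlier results of these data known, so their shares describe these data and are not independent support. Lists for core functions and signalling named 1742 genes, of which 1729 were tested, and 413 of those (23.9%) were nominal on the low side, against 6.29% of all genes. Of the 100 genes with the lowest p, 54 were in the core lists, 5 in the signalling lists and 5 in the reference groups. Of all 18573 genes tested, 1729 were in the core and signalling lists together, 331 in the signalling lists and 642 in the reference groups. The share nominal was 38.0% for protein synthesis, 33.8% for protein folding, turnover and secretion, 30.2% for RNA synthesis and processing, 22.5% for genome copying and cell division, 16.9% for metabolism and mitochondria, and 8.46% for signalling. Levels by library, taken as the median over guides of log2(normalized count + 1) minus the mean of the T0 libraries, kept that order apart from the RNA and the folding role, whose DMSO levels overlapped. In DMSO replicates 1 to 3 they were −0.84, −0.91 and −0.95 for protein synthesis, −0.30, −0.32 and −0.31 for metabolism and 0.00, −0.05 and −0.05 for signalling, whose T0 libraries stood at 0.07 and −0.07.

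**Figure D3:**
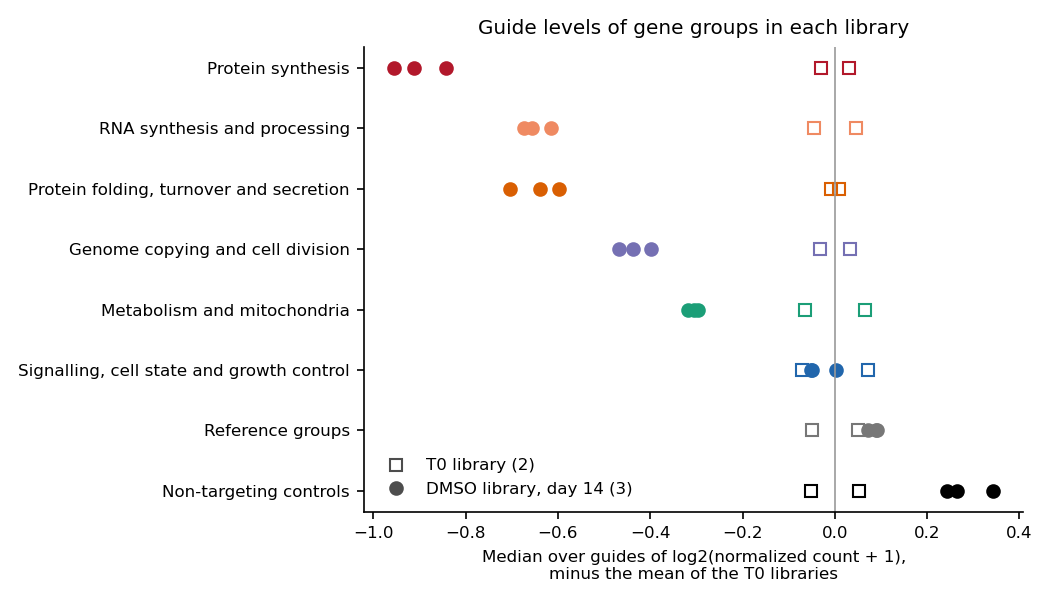
Level of each role in each library, as the median over guides of log2(normalized count + 1) minus the mean of the T0 libraries; open squares are T0, filled circles DMSO. The 3 DMSO libraries lie below both T0 libraries for the 5 core roles, between them for signalling, and above them for the reference groups and the non-targeting controls (0.24 to 0.34).

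Protein synthesis had the lowest median fold change of the roles, −0.82 over 263 genes. Without T0 replicate 1 it was −0.39, with all genes at 0.21, and with a mean of 50 raw counts it was −0.53, next to −0.54 for RNA synthesis and processing. Proteins of the large ribosomal subunit had a median of −1.19, 46 of 47 were negative and 26 of 47 were nominal. Those of the small subunit had a median of −1.06, with 14 of 33 nominal. RPS18, of the small subunit, gave normalized counts of 161 and 152 at T0 and 27.0, 39.7 and 55.2 with DMSO and a fold change of −2.48 ± 1.22 (adjusted p = 0.0875, RRA). RPL3, of the large subunit, had the lowest fold change among the named genes at −4.72 ± 2.59, with normalized counts of 29.9 and 139.7 at T0 and 11.2, 13.8 and 1.99 with DMSO. The T0 libraries were far apart for RPL3, though both lay above all DMSO libraries, as in 17.1% of all genes tested. RPS15A and RPS26, both of the small subunit, had fold changes of −2.37 ± 2.19 and −2.10 ± 1.82.

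Factors that build ribosomes had a median of −0.63, with 28 of 81 nominal. RPP38, a protein of the RNase P and MRP particles that cut precursor tRNA and rRNA, gave normalized counts of 139.9 and 129 at T0 and 25.0, 17.9 and 14.8 with DMSO and a fold change of −2.54 ± 1.85. NOP14, which matures the small subunit, had −1.60 ± 1.43. Translation factors had a median of −0.53 with 13 of 44 nominal, among them EIF2S3, a subunit of the factor that brings the initiator tRNA, at −1.74 ± 0.92. EIF4A3, a helicase of the exon junction complex, had −2.45 ± 2.29.

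The enzymes that charge tRNAs were low in both compartments. Cytosolic synthetases had a median of −0.83 with 7 of 23 nominal, and mitochondrial ones −0.77 with 7 of 17. DARS, which charges aspartate, gave normalized counts of 229 and 273 at T0 and 92.8, 112 and 90.0 with DMSO and a fold change of −2.19 ± 1.59, and all 6 guides were below 0. The mitochondrial AARS2 and YARS2 had −1.44 ± 2.15 and −1.40 ± 1.27. Enzymes that process protein N-termini had a median of −0.48. Beside NAA10, the acetyltransferase NAA30 and the myristoyltransferase NMT1 had −1.55 ± 2.55 and −1.56 ± 3.85, neither called.

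In RNA synthesis and processing the median over 325 genes was −0.58. The core of RNA polymerase II had a median of −0.76 (4 of 12 nominal), and RNA polymerases I and III had −0.61 (12 of 34). POLR3A, the largest subunit of polymerase III, gave normalized counts of 107 and 78.8 at T0 and 18.99, 15.8 and 12.3 with DMSO and a fold change of −2.66 ± 1.12 with all 6 guides below 0. Mediator, which links activators to polymerase II, had −0.59 (7 of 31), and general transcription factors had −0.45 (7 of 31). Integrator and the 3′ end processing factors had −0.63 with 12 of 30 nominal. INTS8, an Integrator subunit, gave normalized counts of 155 and 109 at T0 and 29.6, 33.9 and 38.3 with DMSO and a fold change of −2.53 ± 0.80 (adjusted p = 0.0804, RRA). NELFB, of the complex that pauses polymerase II, had −2.44 ± 0.78 over 6 guides.

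Among splicing lists, the Sm proteins with the U1 and U2 proteins had a median of −0.75 (11 of 28 nominal), and the tri-snRNP, the PRP19 complex and the helicases −0.45 (9 of 40). SF3B1, which holds the branch point in the U2 particle, had −2.89 ± 1.69, with T0 counts of 196 and 79.1 and DMSO counts of 68.2, 41.9 and 15.3. In the list of the minor spliceosome and the SMN complex, SART3, a recycling factor of the U6 particle, gave normalized counts of 159 and 117 at T0 and 14.0, 17.2 and 16.2 with DMSO and a fold change of −3.04 ± 1.31. GEMIN5, the subunit that reads small nuclear RNAs, had −2.13 ± 1.97. The RNA exosome had a median of −0.65, and nuclear pore and transport factors −0.71. NUP93, a scaffold of the pore, had −2.03 ± 1.73, and RCC1, which loads Ran with GTP on chromatin, had −1.86 ± 4.46.

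Both parts of the proteasome were low. The 19S cap had a median of −0.93 and the 20S core −0.74, each with 7 of 19 genes nominal. PSMB7, a catalytic subunit of the core, gave normalized counts of 229.9 and 261 at T0 and 64.5, 56.7 and 80.7 with DMSO and a fold change of −1.90 ± 1.63. The cap subunit PSMD13 was nominal on both sides, with 2 of 6 guides below 0 and a fold change of 0.83 ± 3.48. The core enzymes of SUMO, ubiquitin and NEDD8 had a median of −0.53 with 15 of 36 nominal. UBE2M, a conjugating enzyme for NEDD8, gave normalized counts of 128 and 141 at T0 and 27.4, 34.5 and 14.0 with DMSO and a fold change of −2.16 ± 1.92.

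Entry to the endoplasmic reticulum and N-glycosylation had a median of −0.58 (16 of 50 nominal), COPI and Golgi traffic −0.40 (10 of 37) and the vacuolar proton pump −0.55 (5 of 18). TRAPPC8, of a complex that tethers transport vesicles, had −1.80 ± 0.86, and ATP6V0C, which forms the ring of the pump that carries protons, −2.41 ± 3.83. The chaperones of the HSP70 and HSP90 families with the mitochondrial ones had a median of −0.17, yet 7 of 19 were nominal. HSPE1, the small partner of the mitochondrial chaperonin, gave normalized counts of 181 and 222 at T0 and 39.5, 53.3 and 65.7 with DMSO and a fold change of −2.17 ± 2.51 (adjusted p = 0.0875, RRA). STIP1, which hands clients from HSP70 to HSP90, had −1.52 ± 0.61.

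**Figure D4:**
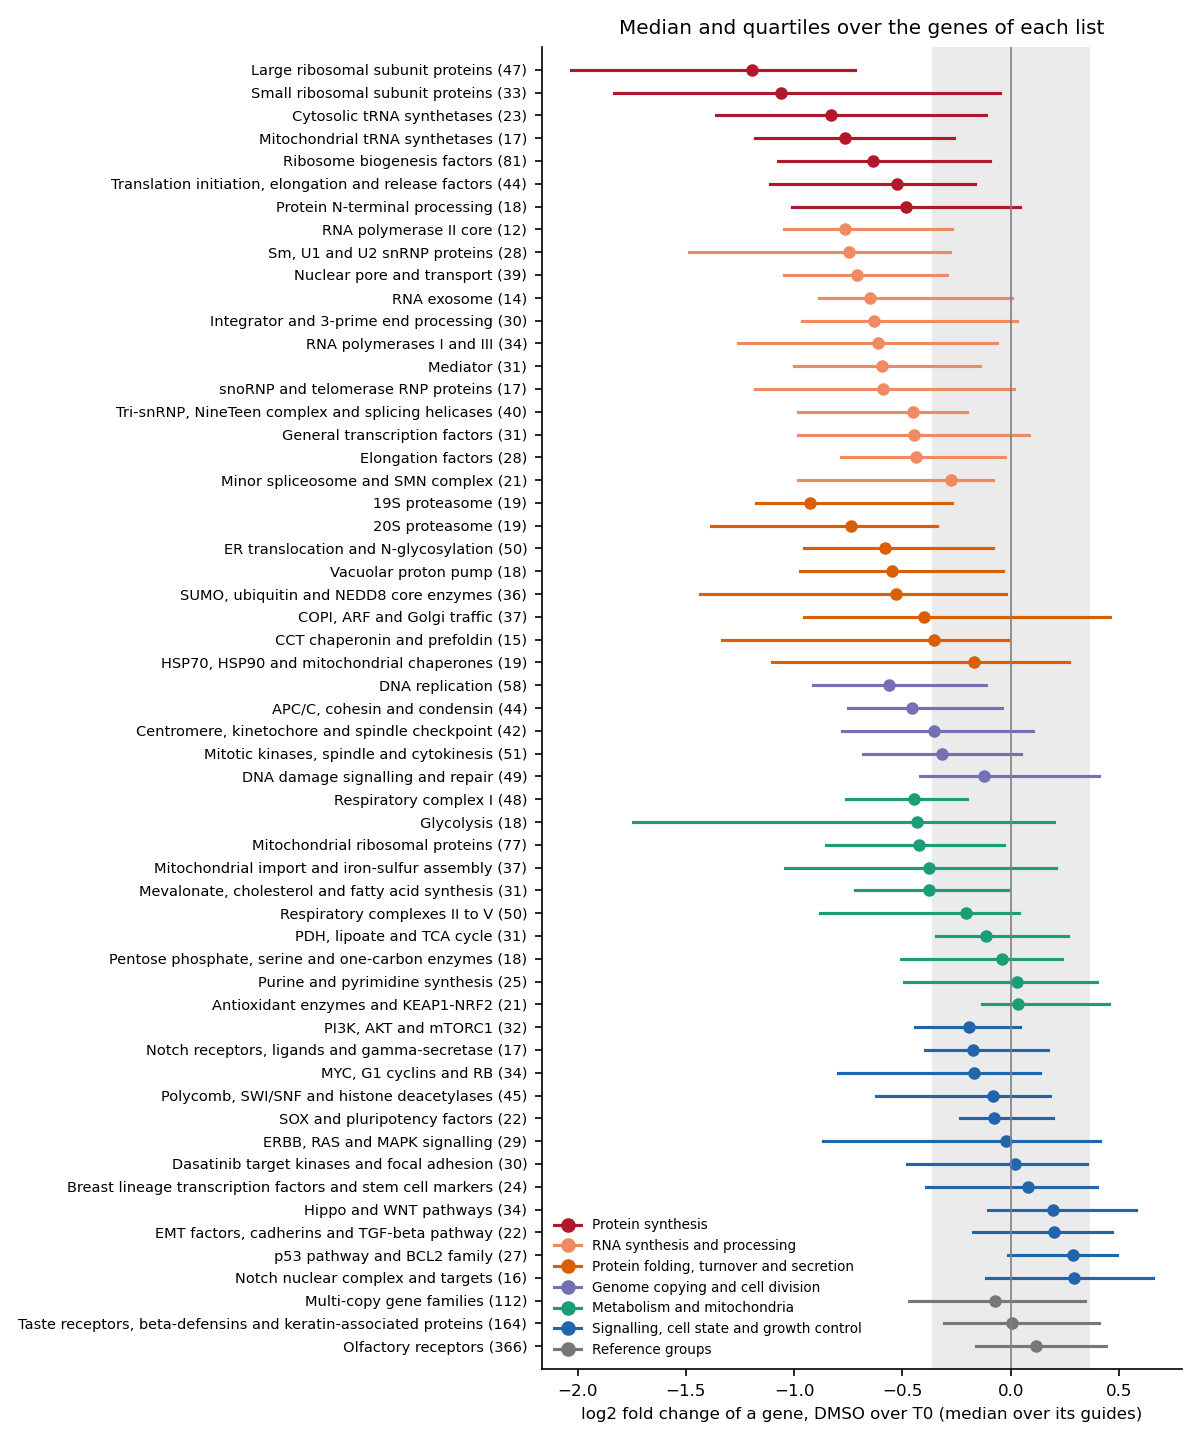
Median (point) and quartiles (line) of the fold change (log2, DMSO over T0) over the tested genes of each list, whose number is in brackets, coloured by role; the grey band and line are the quartiles and the median of all genes tested. Proteins of the large ribosomal subunit lie furthest to the left, at a median of −1.19, and lists of signalling genes lie on both sides of the line.

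For genome copying and cell division the median over 244 genes was −0.34, with DNA replication the lowest list at −0.56 (16 of 58 nominal). RPA3, of the complex that coats single-stranded DNA, gave normalized counts of 178 and 147 at T0 and 88.3, 48.0 and 89.3 with DMSO and a fold change of −3.43 ± 1.80. PCNA, the sliding clamp, had −4.31 ± 2.16 with all 6 guides below 0, from T0 counts of only 88.0 and 37.2. The anaphase-promoting complex with cohesin and condensin had −0.46 (9 of 44), and its subunits ANAPC5 and ANAPC4 had −1.40 ± 1.84 and −2.25 ± 1.64. Centromere, kinetochore and spindle checkpoint genes had −0.36 (9 of 42). SPC24, which ties the outer kinetochore to the inner one, gave normalized counts of 152 and 159 at T0 and 28.5, 24.7 and 30.9 with DMSO and a fold change of −2.20 ± 1.56. DNA damage and repair genes had a median of −0.12, with 11 of 49 nominal, led by the homologous recombination gene BARD1 at −2.62 ± 4.18.

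Metabolism split between lists. Respiratory complex I had a median of −0.45 with 42 of 48 genes negative, but only 7 of 48 were nominal. Mitochondrial ribosomal proteins were alike, at −0.42 with 61 of 77 negative and 11 of 77 nominal. In glycolysis the median was −0.43 and 6 of 18 were nominal. ALDOA, the aldolase next to GAPDH in the pathway, gave normalized counts of 112 and 134 at T0 and 31.4, 44.99 and 12.1 with DMSO and a fold change of −3.08 ± 1.18, and the glucose transporter SLC2A1 had −1.79 ± 1.75. COX4I1 of complex IV and ATP5A1 of the ATP synthase had −1.75 ± 1.98 and −1.49 ± 1.76.

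Among genes of mitochondrial import and iron-sulfur assembly (median −0.38), PMPCA, which cleaves import signals, gave normalized counts of 169 and 153 at T0 and 43.1, 78.4 and 60.6 with DMSO and a fold change of −1.52 ± 1.47 (adjusted p = 0.0804, RRA), the first gene past the threshold. ISCA2, an iron-sulfur assembly factor, had −2.14 ± 0.92. AASDHPPT, which arms acyl carrier proteins, led the list of mevalonate, cholesterol and fatty acid synthesis at −1.92 ± 0.71. Purine and pyrimidine synthesis stood at a median of 0.03 with 1 of 25 nominal, the guanylate kinase GUK1. Antioxidant enzymes with the KEAP1-NRF2 pair stood at 0.03 with 1 of 21, the superoxide dismutase SOD1, whose fold change of −4.20 ± 4.72 came with 3 of 5 guides below 0.

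In signalling, no gene was called, where only 10 of all 18573 genes tested were. On the low side 28 of 331 (8.46%) were nominal, against 6.29% of all genes. The list of MYC, G1 cyclins and RB held 6 of the 28, of 34 tested. Guides against MYC, a transcription factor for growth, gave normalized counts of 108 and 92.2 at T0 and 29.6, 23.8 and 21.4 with DMSO. For MYC every DMSO library lay below both T0 libraries, as was so in 17.1% of all genes tested. Its fold change was −1.84 ± 2.60, with 4 of 5 guides below 0 (adjusted p = 0.155, RRA). E2F3, a factor for entry into S phase, gave normalized counts of 149 and 133 at T0 and 46.0, 41.7 and 15.5 with DMSO and −1.95 ± 1.35, and LIN52, of a complex that regulates cell cycle genes, had −1.19 ± 0.66. CCND1, the cyclin of early G1, gave normalized counts of 211 and 220.3 at T0 and 121, 114 and 140.1 with DMSO and a fold change of −0.80 ± 0.78 (adjusted p = 0.675, RRA). RB1, the brake on E2F factors, had 0.08 ± 1.31.

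The PI3K, AKT and mTORC1 list had 4 of 32 nominal. They included RPTOR and MTOR, the scaffold and the kinase of mTORC1. RPTOR gave normalized counts of 175 and 273 at T0 and 81.3, 118 and 80.3 with DMSO with a fold change of −1.65 ± 1.18, and MTOR gave normalized counts of 135 and 164 at T0 and 52.1, 65.9 and 46.1 with DMSO with −1.62 ± 0.88. In the ERBB, RAS and MAPK list the GTPase NRAS gave normalized counts of 213 and 119.7 at T0 and 73.2, 55.2 and 89.4 with DMSO with −1.09 ± 0.87, and the receptor ERBB2 gave normalized counts of 114 and 149 at T0 and 80.9, 67.1 and 70.2 with DMSO with −1.16 ± 1.41. EGFR, another receptor of the family, had −0.61 ± 1.02, and its T0 and DMSO libraries overlapped.

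Among kinases bound by dasatinib and focal adhesion genes, 4 of 30 were nominal on the low side and 3 on the high side. TLN1, which couples integrins to actin, had −2.63 ± 1.87, and PTK2, the focal adhesion kinase, gave normalized counts of 197 and 188 at T0 and 138, 114 and 77.6 with DMSO with −0.81 ± 1.58. SRC had 0.38 ± 0.92, and its T0 libraries at 124 and 36.2 lay on either side of all DMSO libraries. The SRC family kinases FGR and YES1 were nominal on the high side, at 1.71 ± 2.77 and 0.28 ± 1.87. Among chromatin genes 8 of 45 were nominal, led by RBBP5 and ASH2L, which form the core of histone H3 lysine methyltransferase complexes, at −1.41 ± 1.57 and −2.62 ± 2.50.

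No gene of the Notch pathway was called, where only 10 of all 18573 genes tested were. The levels of its receptors, ligands and γ-secretase genes in the DMSO libraries lay between those at T0. Of 17 receptors, ligands and γ-secretase genes 0 were nominal on the low side, and of 16 nuclear and target genes 0 were, with median gene fold changes of −0.18 and 0.29. Of all genes tested 6.29% were nominal, so 0 in lists this short cannot be told from that share. Levels of the nuclear and target genes were 0.25, 0.32 and 0.23 with DMSO, above both T0 libraries at 0.12 and −0.12. NOTCH1 guides gave normalized counts of 99.8 and 212 at T0 and 154, 146 and 109.7 with DMSO, so that the T0 libraries enclosed the DMSO libraries. RBPJ, the DNA-binding partner of the Notch intracellular domain, gave normalized counts of 221 and 84.9 at T0 and 73.2, 101 and 142 with DMSO and a fold change of −0.25 ± 1.14. The γ-secretase subunits NCSTN and PSENEN had 0.17 ± 1.21 and 0.30 ± 1.14. PSEN2, an alternative catalytic subunit, had 0 of 6 guides below 0 and was nominal on the high side at 0.58 ± 1.51. FBXW7, which marks the Notch intracellular domain for destruction, was too, at 1.21 ± 2.91.

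SOX and pluripotency factors had 0 of 22 genes nominal on the low side, where 6.29% of all genes were, and a median of −0.08. SOX2 guides gave normalized counts of 14.0 and 100.1 at T0 and 101, 73.1 and 72.0 with DMSO. T0 replicate 1 lay below all DMSO libraries, T0 replicate 2 lay just under the highest of them, and 4 of 6 guides were tested. EMT factors and cadherins with the TGF-β pathway had a median of 0.20 and 1 of 22 genes nominal, the epithelial cadherin CDH1 at −0.68 ± 1.07. Breast lineage factors and stem cell markers had 0.08 and 1 of 24, PROCR at −0.02 ± 1.86.

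The lists of the p53 and Hippo pathways, which hold known brakes on growth, had medians above that of all genes, as had the Notch nuclear and EMT lists and the non-targeting guides. The p53 pathway with the BCL2 family had a median of 0.29 with 8 of 27 genes negative, and its levels were 0.21, 0.22 and 0.25 in the DMSO libraries against 0.18 and −0.18 at T0. The Hippo and WNT list had a median of 0.20, with DMSO levels of 0.31, 0.18 and 0.06 that overlapped T0 at 0.09 and −0.09. No p53 pathway gene was nominal on either side, where 6.29% of all genes were on the low side and 5.3% on the high side. BAX, which permeabilises mitochondria in apoptosis, had 1.02 ± 0.66 with 0 of 6 guides below 0, and NF2, an activator of the Hippo kinases, had 0.11 ± 0.87. RNF43, a ligase that removes WNT receptors, was nominal on the high side at 1.11 ± 0.79.

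On the high side, the lowest p belonged to VAX1, a homeobox factor of eye and forebrain development, with normalized counts of 63.2 and 48.4 at T0 and 198, 149 and 132 with DMSO. Of its 6 guides 5 were above 0, with a fold change of 2.75 ± 1.60 (adjusted p = 0.271, RRA). In T0 replicate 2 those 5 guides had low normalized counts, from 0.949 to 22.8. The guide below 0 had 146 and 249 at T0. VAX1 was picked by its p among all genes tested, so its rise in these libraries is not separate support. TTC3, an E3 ligase for phosphorylated AKT, gave normalized counts of 127 and 70.7 at T0 and 202, 245 and 229 with DMSO and a fold change of 1.48 ± 1.16, with 0 of 6 guides below 0 (adjusted p = 0.611, RRA). ACER2, a ceramidase of the Golgi, gave normalized counts of 142 and 92.2 at T0 and 226, 288 and 239 with DMSO. PSG8, ZNF599, IL4R and CYP11B2 followed with adjusted p from 0.512 to 0.611 (RRA), and CYP11B2 had a median fold change of −0.03, with 3 of 6 guides below 0.

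Reference groups, made up of receptors and structural proteins of other tissues and of multi-copy families, were read in the same way. Olfactory receptors had a median of 0.12 over 366 genes, with 7 (1.91%) nominal on the low side and 35 on the high side. Of all genes tested, 6.29% were nominal on the low side and 5.3% on the high side. Taste receptors, β-defensins and keratin-associated proteins had 4 of 164 (2.44%) nominal on the low side and a median of 0.01. Among 112 tested genes of multi-copy families, whose guides can match several near-identical genomic copies, 15 (13.4%) were nominal on the low side. USP17L11 gave normalized counts of 1736 and 1802 at T0 and 1246, 985 and 1156 with DMSO and OR4F17, an olfactory receptor of a duplicated chromosome end, normalized counts of 501 and 526 at T0 and 232, 249.6 and 311 with DMSO. Their fold changes of −0.76 ± 0.44 and −0.88 ± 0.45 had small spreads and all 6 guides below 0. The part of the copies in these values was not tested.

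Pairs of genes that encode closely related proteins gave a reading within families. The first-named gene was in most pairs the copy expressed in most tissues and the second one expressed in few, but EIF4A2 and RPL36AL are also broadly expressed, and POLR3GL rather than POLR3G is the common form. In 35 of 46 pairs the first-named copy had the lower fold change, the medians being −0.58 and −0.01. Of the 46 first-named copies 15 were nominal on the low side and of the others 0, where 6.29% of all genes were. Several first-named copies, GAPDH, NAA10 and SEC61A1 among them, also belong to the core lists, so the 15 partly repeat those lists. GAPDH had −4.26 and the sperm form GAPDHS 0.06. NAA10 had −3.62 and the testis form NAA11 0.37, and RPL3 had −4.72 and RPL3L of muscle −0.79. SEC61A1 and SEC61A2 had −2.94 and −0.82. The catalytic proteasome subunits PSMB5, PSMB6 and PSMB7 had −1.73, −0.72 and −1.90, and their immunoproteasome counterparts PSMB8, PSMB9 and PSMB10 had −0.32, 0.72 and −0.34. At the other end POLR3G had 2.81 ± 3.67 (SD over guides) and POLR3GL −0.29, and COX6B1 had 1.11 against 0.15 for COX6B2. Expression of either copy was not measured in these cells.

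**Figure D5:**
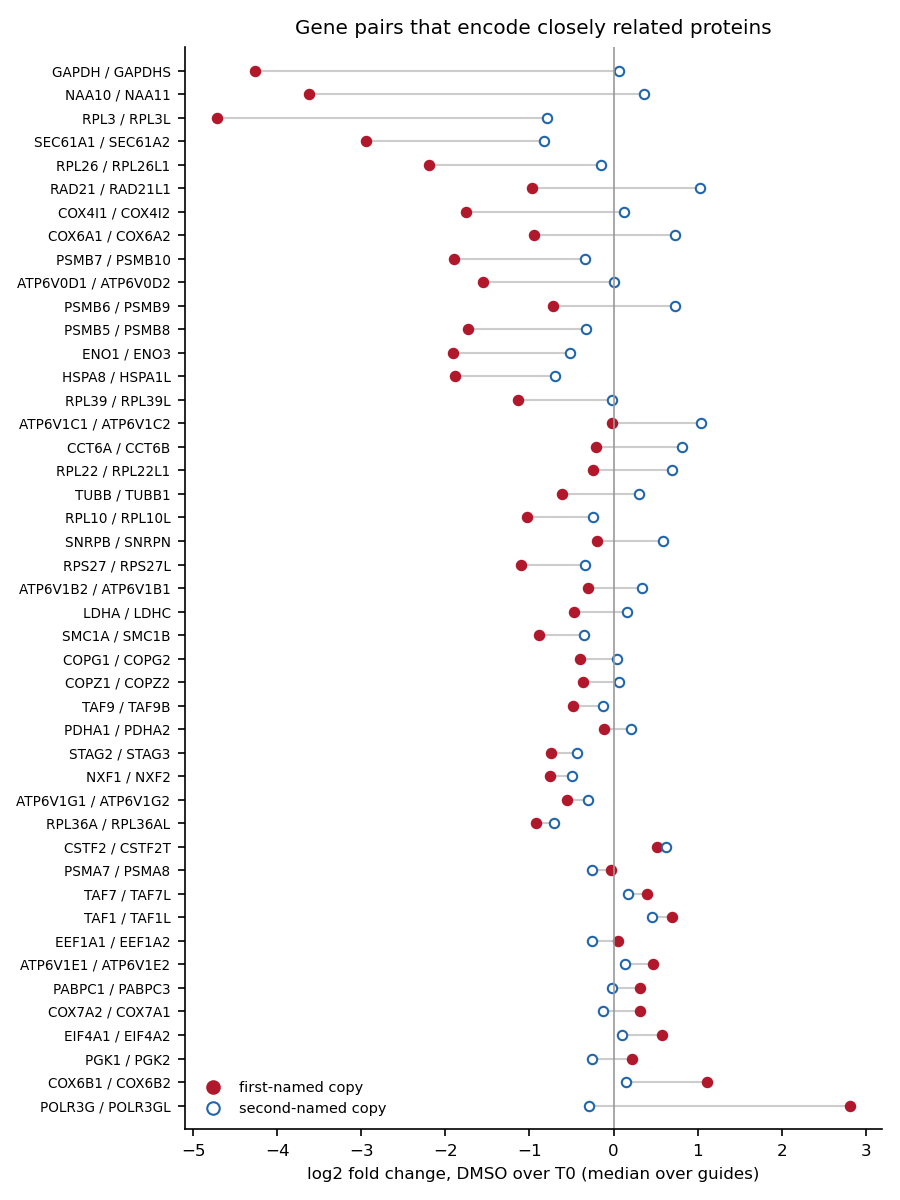
Fold change (log2, DMSO over T0, median over guides) of both genes of 45 of the 46 pairs, ordered by their difference; filled red points are the first-named copy and open blue points the second. In 34 of those shown the red point lies to the left, from GAPDH and GAPDHS at the top to the near-equal CSTF2 and CSTF2T.

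Guides of parts A and B are different sequences carried by different cells of the pool, so their medians were set side by side. For protein synthesis they were −0.77 and −0.85, and both were under −1 in 21.7% of its genes against 2.02% of all genes. For signalling both were under −1 in 3.93%, and for the reference groups in 0.623%. When counts were summed over the guides of a gene and tested with edgeR, 98 genes (0.528%) were called lower, 9 of the 10 among them. Guides with many reads weigh most in such a sum. The 98 included HNF4A, with 2 of 6 guides below 0 and a median fold change of 0.51. They also included VPS33B, with 4 of 6 guides below 0 and a median of −0.50. The summed test called 21 of 263 protein synthesis genes, 18 of 325 RNA genes, 10 of 213 folding and secretion genes, 6 of 244 division genes, 6 of 356 metabolism genes, 5 of 331 signalling genes and 1 of 642 reference genes. MYC, 1 of the 5 signalling genes, had an adjusted p of 0.0348 in that test. With limma on the mean log2 count of a gene, 0 genes were called in either direction, with 663 lower and 2280 higher before adjustment.

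The GSI cultures were compared with the same T0 libraries, so their values share the controls and are given only side by side. In GSI replicate 1 a single guide against VPS33B took 38.8% of all counts, so values are given by library. For protein synthesis the levels in replicates 1 to 3 were −0.58, −0.73 and −0.65 with GSI and −0.84, −0.91 and −0.95 with DMSO. For genome copying and cell division they were −0.36, −0.38 and −0.35 with GSI and −0.47, −0.40 and −0.44 with DMSO. Normalized counts with GSI were 52.1, 42.9 and 35.3 for GAPDH, 43.3, 26.0 and 32.9 for SEC61A1, 67.3, 20.5 and 29.0 for MYC and 173, 128 and 144 for VAX1. MicroRNA guides were tested apart, and of 1633 microRNAs 0 were called by RRA on edgeR p-values in either direction, with 66 lower and 74 higher before adjustment.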

How the data were processed

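Genomic DNA of the cultures was amplified by PCR around the sgRNA and sequenced single-end. The authors counted guides with MAGeCK (0.5.9.2, after bcl2fastq 2.19 and FastQC 0.11.5, per the labels), and deposited a table of raw counts per guide and library. They also deposited a table of normalized signal, which was the raw count times 1 constant per library and served only as an alternative scaling.

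Libraries were grouped by their labels. In R 4.3.3, counts were scaled by median-ratio size factors over the 8 libraries, and guides averaging 10 or more raw counts over the 5 libraries compared were tested with edgeR 4.0.16 (quasi-likelihood, no covariate). One-sided p-values were combined for each gene with at least 4 tested guides by robust rank aggregation (alpha 0.25, exact p), with Benjamini-Hochberg adjustment over all genes. Scripts were tested on simulated data. Alternatives were DESeq2 1.42.0, limma 3.58.1, other scalings and filters, counts summed over guides, and each library left out. No column belonged to other samples.

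Members and lists were chosen with earlier results of these data known. Named genes were the 12 with the lowest p on the low side and 8 on the high side, the 3 with the lowest low-side p in each list, 2 on the high side in signalling lists, and 14 fixed genes of the Notch, MYC, RAS and tumour suppressor pathways. Positions are from GENCODE 44 (GRCh38) and were found for 18375 of 18573 genes by symbol.

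Same-numbered T0 and DMSO libraries did not deviate together (r from −0.0014 to 0.0058), so numbers were not used as pairs. Total counts of 12.1 M to 17.7 M gave a median of 80 to 110 per guide. PCR reads without molecular identifiers are not independent molecules, and an exact permutation test of 2 against 3 libraries cannot go below p = 0.1. Guide sequences were not used here, and some genes, 1 of the 10 called among them, are not reported here by name.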

Additional observations from a re-analysis of the deposited data

How the results depend on the processing

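The 10 genes called lower had a negative fold change in every alternative in which they were tested. CENPW and PDCD2 had too few guides at a minimum of 50 raw counts, and LOC440243 had too few without T0 replicate 2 and with guides above 0 in both T0 libraries. The calls were less steady than the signs. GAPDH and NAA10 stayed called in 14 of 18 settings, CENPW in 12 of 17 and PDCD2 in 10 of 17. RPL37A and SHQ1 did in 11 of 18, SEC61A1 in 9 of 18, LOC440243 in 8 of 16 and SYS1 in 5 of 18. The count of genes called lower stayed at 8 to 10 with DESeq2, other scalings, other RRA settings and without a filter. It was 0 with guides averaging 50 or more raw counts, 3 with all 8 libraries in one fit, 98 with edgeR on counts summed over guides and 0 with limma on mean log2 values. With guides above 0 in both T0 libraries, an alternative chosen after seeing the data, it was 5. Leaving out 1 library gave 0 to 8, and it was 0 without either T0 library, where the lone T0 sample is assumed to vary like the DMSO group. The replicate block gave 4 genes, of which NAA10 was among the 10 and RPS18, HSPE1 and SYMPK were not, although the numbers do not pair the samples and DMSO replicate 3 has no T0 partner. Genes called higher numbered 0 except for 5 with summed counts, among them VAX1, and 1, VAX1, with guides above 0 in both T0 libraries. Guides called numbered 6653 with DESeq2, 34 with all 8 libraries in one fit, 1 with guides above 0 in both T0 libraries, and 0 to 8358 when 1 library was left out, the highest without T0 replicate 1. The causes were not tested. Median fold changes of the core roles stayed below that of all genes in 16 of 16 settings, and that of signalling in 11. With 1 transduced pool and 2 T0 libraries that differ more than the DMSO libraries do, genes whose guides changed little could not be told from those that did not change.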

Other observations

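Genes on chromosome X had a median fold change of 0.18 (log2, DMSO over T0) over 723 tested genes, with 2.90% nominal on the low side and 9.41% on the high side. In windows of 3 Mb with at least 12 tested genes, 552 in all, the lowest medians were in adjoining windows of chromosome 3 (GRCh38), singled out after their values were seen. From 9000001 to 12000000 the median over 34 genes was −0.64, and 9 were nominal on the low side, among them the chromatin genes SETD5 and BRPF1 and the repair gene OGG1. The guide levels there were 0.12 and −0.12 at T0 and −0.46, −0.92 and −0.81 with DMSO, so that all DMSO libraries lay below both T0 libraries. From 12000001 to 15000000 the median over 24 genes was −0.54, and 6 were nominal.

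A single guide against VPS33B, a vesicle fusion protein, held 1.35% and 1.52% of all counts at T0 and 0.254%, 0.635% and 0.0938% in the DMSO libraries. In GSI replicate 1 it held 38.8%. A guide against HNF4A, a liver transcription factor, was the next to it, and the ratio of their counts lay between 6.33 and 7.36 in all 8 libraries.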
